A study of Mus musculus with 2 samples.

Results

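The genes considered here are the TRDV genes and the TRAV15 genes, V segments of the T cell receptor (TCR) δ chain, wherever they were joined to a TRAJ segment, a J segment of the TCRα chain. A clonotype, the set of reads with the same CDR3, was taken as a member when its first J gene was a TRAJ and its first-listed V gene was a TRDV or a TRAV15. There were 182 such clonotypes among the 6089 TRAJ clonotypes and 7732 clonotypes of the thymus library, and 325 among the 9583 TRAJ clonotypes and 11826 clonotypes of the spleen library. Of these, 86 in the thymus and 157 in the spleen used a TRDV gene, and 96 and 168 used a TRAV15 gene.

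The cells were iT cells, T cells grown from C57BL/6 mouse embryonic stem cells (CD45.2) of the iR9 line, in which a doxycycline-inducible Runx1-p2a-Hoxa9 cassette sits in the Rosa26 locus. Progenitors made from that line were injected into irradiated B-NDG mice, an immunodeficient CD45.1 strain that lacks its own T, B and NK cells, and 15000 sorted CD4SP and CD8SP iT cells per library were profiled at week 6 after transplantation. The sources describe the gates in differing ways. The study's text calls the cells of both tissues naïve (CD62L+CD44-), whereas its methods give that gate for the spleen alone, and give negative gates for TCRγδ and lineage markers for the thymus alone. There was 1 library per tissue, and the sources do not say whether both came from the same mice, so thymus and spleen are set side by side without a test, and tissue and library, and the gate where it differed, cannot be told apart. TRAJ reads numbered 918063 in the thymus and 1820314 in the spleen. A count of 0 there allows a share of up to 0.000327% and 0.000165% of TRAJ reads, and these limits and all intervals cover counting error only, because no molecular identifiers were stated.

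In the mouse the TCRα and TCRδ genes share a locus on chromosome 14. The TRAV genes lie at its upstream end, the TRDV genes closer in, then the TRDD, TRDJ and TRDC segments of the δ chain, and then the TRAJ segments and TRAC. A V gene that joins a TRAJ directly removes the δ D, J and C segments between them. A locus that rearranges again does so with a V further upstream and a J further downstream. TRDV genes are best known from γδ T cells. The TRAV15 genes carry DV6 in most of their names because they are used in both α and δ chains.

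The 3 TRDV clonotypes with most reads in each library all used TRDV1 and were all productive. Their CDR3s are shown from the V side to the J side, as read from the deposited tables. The bases that the alignment assigned to J are in capitals, and small letters hold the V part and any inserted nucleotides.
TRDV1 TRAJ50 thymus: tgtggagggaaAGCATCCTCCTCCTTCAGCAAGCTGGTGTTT
TRDV1 TRAJ37 thymus: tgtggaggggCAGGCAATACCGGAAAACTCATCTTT
TRDV1 TRAJ24 thymus: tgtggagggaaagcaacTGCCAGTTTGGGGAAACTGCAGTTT
TRDV1 TRAJ37 spleen: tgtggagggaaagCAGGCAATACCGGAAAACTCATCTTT
TRDV1 TRAJ56 spleen: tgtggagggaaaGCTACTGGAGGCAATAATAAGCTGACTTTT
TRDV1 TRAJ56 spleen: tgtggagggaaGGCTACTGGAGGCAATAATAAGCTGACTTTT
In thymus they held 873, 463 and 435 reads. In spleen they held 3555, 2395 and 1513 reads. The inserted nucleotides were 0, 1 and 3 in thymus and 0 in all 3 of the spleen. The last pair, 1 base apart, encodes a single protein.

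The corresponding TRAV15 clonotypes carry a longer V part, and are shown in the same way for comparison.
TRAV15N-1 TRAJ39 thymus: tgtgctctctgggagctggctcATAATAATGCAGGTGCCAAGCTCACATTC
TRAV15D-2-DV6D-2 TRAJ13 thymus: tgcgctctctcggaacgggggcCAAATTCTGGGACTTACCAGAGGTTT
TRAV15-2-DV6-2 TRAJ37 thymus: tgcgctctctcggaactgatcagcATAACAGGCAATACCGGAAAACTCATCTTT
TRAV15D-2-DV6D-2 TRAJ21 spleen: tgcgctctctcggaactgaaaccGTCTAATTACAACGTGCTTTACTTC
TRAV15N-1 TRAJ26 spleen: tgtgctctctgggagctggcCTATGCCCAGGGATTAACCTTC
TRAV15N-1 TRAJ23 spleen: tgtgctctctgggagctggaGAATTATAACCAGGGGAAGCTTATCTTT
They held 551, 494 and 483 reads in thymus and 637, 553 and 524 reads in spleen, and all were productive. The inserted nucleotides were 2, 6 and 1 in thymus and 4, 0 and 1 in spleen. The 3 leading clonotypes held 17.5% and 20.7% of TRDV reads in thymus and spleen, and 14.02% and 7.24% of TRAV15 reads.

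The tables give gene names without coordinates, so positions are those of the same names in GENCODE M21 on GRCm38. All lie on chromosome 14, and distances are from the end of the gene to TRAJ61, the pseudogene that heads the J cluster at chr14:54155005-54155076. TRDV1 (chr14:53881612-53882217) lies 273 kb upstream, TRDV2-1 (chr14:53946073-53946660) 208 kb, TRDV2-2 (chr14:53960944-53961602) 193 kb and TRDV4 (chr14:54074905-54075515) 79.5 kb upstream. The TRAV15 genes exist as copies in a duplicated part of the V cluster. TRAV15-1-DV6-1 (chr14:53559632-53560247) and TRAV15-2-DV6-2 (chr14:53649404-53649994) lie 595 kb and 505 kb upstream, and the D and N copies lie between 887 kb (TRAV15N-2) and 1291 kb (TRAV15D-1-DV6D-1) upstream. All are annotated as V genes. TRDV3 is annotated as a pseudogene. TRDV5 lies on the minus strand at the downstream end of TRDC. Neither was found with a TRAJ.

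TRDV1 was the leading TRDV gene in both libraries, with 63 of 86 clonotypes and 8058 reads in thymus and 94 of 157 clonotypes and 27945 reads in spleen. TRDV2-2 had 15 and 40 clonotypes with 1136 and 5614 reads, TRDV2-1 had 5 and 20 with 724 and 2271 reads, and TRDV4 had 3 in each with 186 and 141 reads. TRDV genes together took 1.10% of TRAJ reads in thymus (Wilson 95% interval 1.08% to 1.12%) and 1.98% in spleen, and TRAV15 genes took 1.19% and 1.30%.

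Among the TRAV15 genes, TRAV15-1-DV6-1 was listed first for 24 clonotypes in thymus and 34 in spleen. TRAV15D-2-DV6D-2 was listed first for 20 and 52, but every one of these tied with TRAV15N-2. TRAV15N-1 had 22 and 38. TRAV15-2-DV6-2 had 16 and 24, TRAV15D-1-DV6D-1 had 8 and 16, and TRAV15N-2 had 6 and 4. These copies are nearly alike, and in 26 of the 96 thymic and 65 of the 168 splenic clonotypes the first-listed copy tied with another. Of these ties, 2 in thymus and 0 in spleen set a copy without D or N in its name (TRAV15-1-DV6-1 or TRAV15-2-DV6-2) against a D or N copy. No TRDV clonotype was tied, and no member tied with a V gene outside its class.

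Reads per clonotype were compared by their medians, without a test. The median was 96.5 reads in thymus and 113 in spleen for TRDV, 76 and 95 for TRAV15, and 84 and 103 for all other TRAV joined to TRAJ. Clonotypes of under 10 reads made up 8 of 86 and 9 of 157 for TRDV, and 9 of 96 and 12 of 168 for TRAV15. For other TRAV they made up 542 of 5907 and 673 of 9258. Productive TRDV clonotypes had a median of 119 reads in thymus and 139.5 in spleen, and those that were not productive had 51 and 63. For TRAV15 the medians were 80 and 125 reads when productive and 61 and 70 when not. Other TRAV clonotypes stood at 97 and 129 against 60 and 68 reads. The not productive group was lower in all 3 classes and both libraries.

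**Figure D1:**
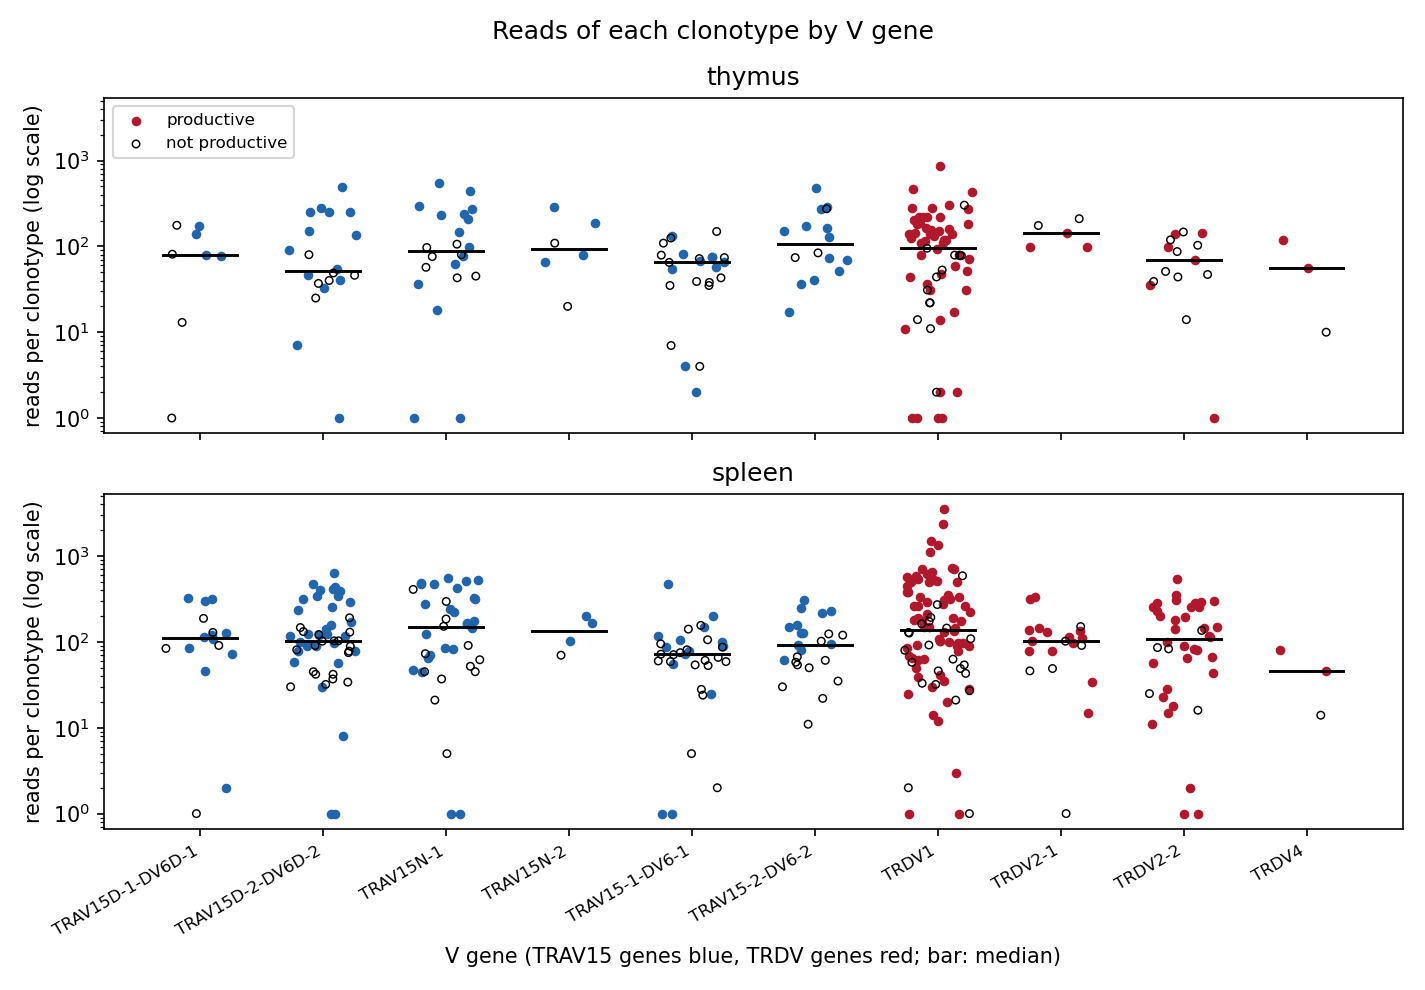
Reads per clonotype (log scale) for each V gene in order along the locus, thymus above and spleen below. Each point is 1 clonotype, filled when productive (red for TRDV, blue for TRAV15) and open when not, and bars are medians. TRDV1 in spleen reaches furthest, to 3555 reads, and not productive clonotypes reach at most 590 reads there.

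The J genes joined set TRDV apart from TRAV15 and from other TRAV as a whole. The TRAV genes next to TRDV1, TRAV17 to TRAV21, came close to TRDV in this, as given below. TRAJ45 and the J genes upstream of it, the end of the J cluster facing the V genes, took 50 of 86 TRDV clonotypes in thymus (58.1%, Wilson 95% interval 47.6% to 68.0%) and 98 of 157 in spleen (62.4%, 54.6% to 69.6%). Among other TRAV clonotypes these J genes took 13.9% of 5907 in thymus and 14.1% of 9258 in spleen. The difference was 44.2 percentage points in thymus (95% interval 33.6 to 54.1) and 48.3 points in spleen (40.5 to 55.5), with adjusted p = 4.38e-20 and 2.03e-41 by two-sided Fisher's exact tests. At the other end of the cluster, TRAJ23 and downstream took 3 thymic and 8 splenic TRDV clonotypes (3.49% and 5.10%), beside 38.4% and 39.0% of other TRAV clonotypes.

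These p-values, and those that follow, are adjusted by the Benjamini-Hochberg method over 26 tests, of which 8 passed 0.05. Each test compares clonotypes of 1 library by V class. The clonotypes of a library are not biological replicates, so the tests do not speak for other mice.

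As a class TRAV15 did not show the pattern of TRDV. It joined TRAJ45 and upstream in 16 of 96 clonotypes in thymus (16.7%, 10.5% to 25.4%) and 21 of 168 in spleen (12.5%, 8.32% to 18.4%). TRDV exceeded it by 41.5 points in thymus (95% interval 27.8 to 53.1) and 49.9 points in spleen (40.2 to 58.2), with adjusted p = 3.94e-08 and 2.23e-20 by Fisher's exact test. TRAV15 differed from other TRAV by 2.72 points in thymus (-3.49 to 11.5) and -1.63 points in spleen (-5.87 to 4.27), which did not pass (adjusted p = 0.540 and 0.680, Fisher's exact test). Among the copies TRAV15-1-DV6-1 stood highest, at 12 of 24 clonotypes in thymus and 8 of 34 in spleen, as given below, and was not tested.

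The TRAV genes that lie next to TRDV1 on its upstream side, TRAV17 to TRAV21, also joined TRAJ45 and upstream often, in 52.8% of 178 clonotypes in thymus and 57.8% of 410 in spleen. TRDV was 5.33 points higher in thymus (95% interval -7.44 to 17.6) and 4.62 points higher in spleen (-4.47 to 13.3), and neither difference passed (adjusted p = 0.535 and 0.497, Fisher's exact test). The nearest of them, TRAV21/DV12, which is also named as a δ gene, stood at 59.2% of 103 and 62.9% of 202 clonotypes. The other genes with both names, TRAV4-4/DV10, TRAV6-7/DV9, TRAV13-4/DV7, TRAV14D-3/DV8 and TRAV16D/DV11, stood together at 20.8% of 542 and 18.2% of 809.

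**Figure D2:**
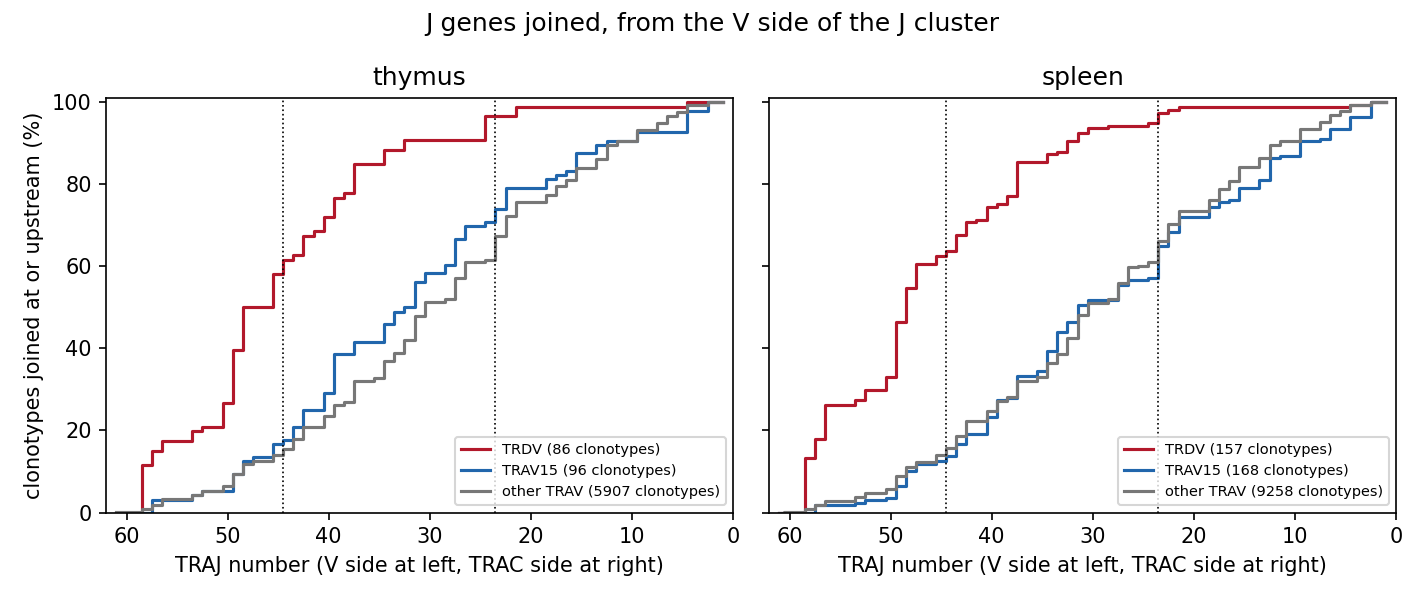
Cumulative share of clonotypes (%) by TRAJ number, from the V side of the J cluster at left to the TRAC side at right, for TRDV (red), TRAV15 (blue) and other TRAV (grey) in each library. Dotted lines set off TRAJ45 and upstream, and TRAJ23 and downstream. TRDV has reached 58.1% and 62.4% by TRAJ45, and the other classes 12.5% to 16.7%.

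The J genes most often joined by TRDV were TRAJ49 with 11, TRAJ58 with 10 and TRAJ48 with 9 clonotypes in thymus. In spleen they were TRAJ58 and TRAJ49 with 21 each, followed by TRAJ56, TRAJ48 and TRAJ37 with 13 each. TRAJ58 lies at chr14:54157280-54157342, TRAJ49 lies at chr14:54168686-54168747 and TRAJ48 at chr14:54169808-54169868. TRAJ58 took 11.6% of TRDV clonotypes in thymus and 13.4% in spleen, beside 0.880% and 0.680% of other TRAV clonotypes. TRAJ49 took 12.8% and 13.4% beside 3.03% and 3.07%. These J genes were chosen for their counts among TRDV, so the shares are given as a description.

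For TRAV15 the leading J genes were TRAJ39 with 9 and TRAJ31 and TRAJ27 with 6 clonotypes each in thymus, and TRAJ23 with 13 and TRAJ37 and TRAJ12 with 9 each in spleen. TRAJ31 and TRAJ23 were also the leading J genes of other TRAV, with 5.67% and 5.65% of clonotypes in thymus and 5.56% and 5.23% in spleen.

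Among V-J pairs, TRDV1-TRAJ49 led the TRDV class in both libraries, with 10 clonotypes and 646 reads in thymus and 15 clonotypes and 4524 reads in spleen. It was productive in 10 of 10 and 13 of 15. The second pair in spleen was TRDV2-2-TRAJ58 with 13 clonotypes, 12 of them productive, and 2221 reads, and in thymus that pair had 3 clonotypes. For TRAV15 no single pair led. In thymus 8 pairs had 3 clonotypes each, of which TRAV15N-1-TRAJ39 had most reads (705), and in spleen 3 pairs had 5 each, TRAV15N-1 with TRAJ23, TRAJ34 and TRAJ12. TRDV made 38 V-J pairs in thymus and 59 in spleen, of which 32 were in both, and TRAV15 made 67 and 99, of which 45 were in both. The TRAV15 pairs depend on which of the tied copies was listed first. Other TRAV made 2225 and 2647 pairs, and their overlap was not counted, so the overlaps given describe the members alone.

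Within the TRDV class the share at TRAJ45 and upstream was 57.1% in thymus and 64.9% in spleen for TRDV1, and 66.7% and 75.0% for TRDV2-2. TRDV2-1, which lies between these genes, had 2 of 5 clonotypes there in thymus and 6 of 20 in spleen, and TRDV4 had 2 of 3 and 1 of 3. The intervals of TRDV2-1 and TRDV4 are wide and these shares were not compared by a test. Among TRAV15 copies TRAV15-1-DV6-1 had 12 of 24 and 8 of 34, TRAV15-2-DV6-2 had 1 of 16 and 4 of 24, and the D and N copies together had 3 of 56 and 9 of 110.

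**Figure D3:**
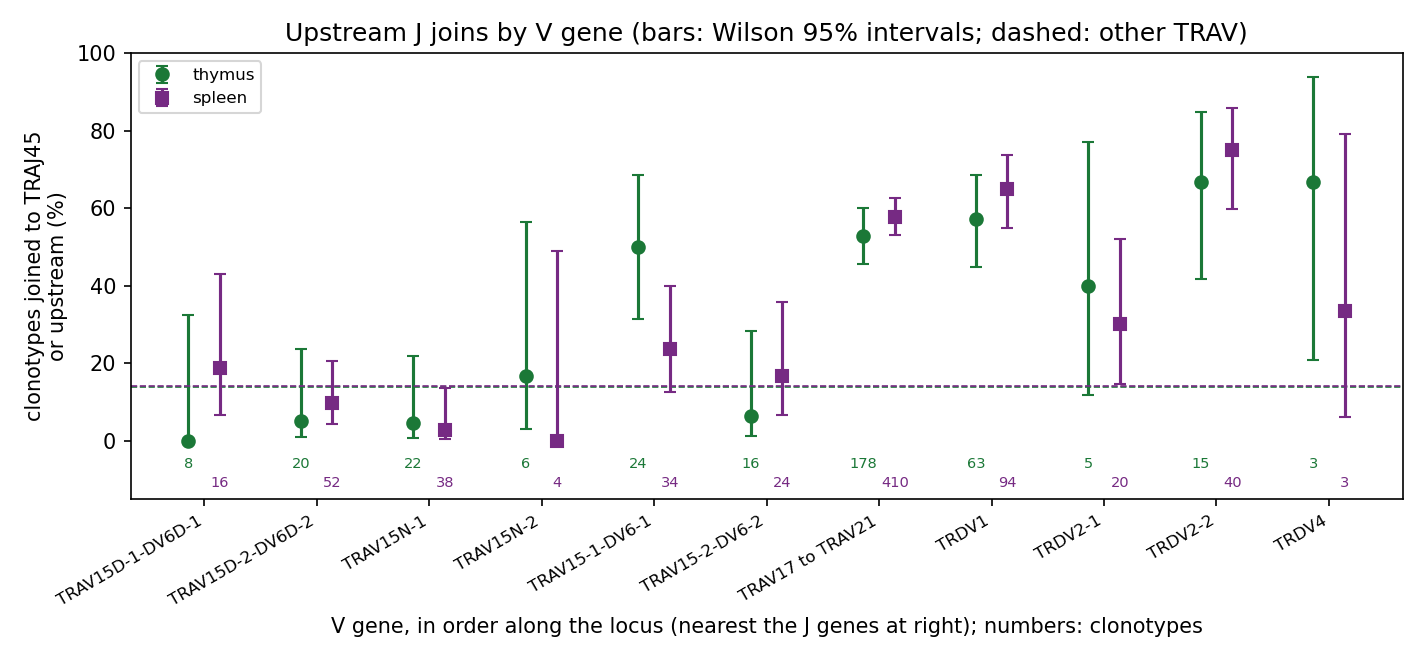
Share of clonotypes (%) joined to TRAJ45 or a J gene upstream of it, for each V gene in order along the locus, with TRAV17 to TRAV21 as 1 group. Circles are thymus, squares are spleen, bars are Wilson 95% intervals, and the numbers beneath are clonotypes. The dashed lines are other TRAV (13.9% and 14.1%), and the whole intervals of TRDV1, TRDV2-2 and TRAV17 to TRAV21 lie above them in both libraries. The points of TRAV15-1-DV6-1, TRDV2-1 and TRDV4 also lie above in both, with at least 1 interval that crosses the line.

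Most of the joins were in frame. A productive CDR3, in frame and free of stop codons, was found in 61 of 86 TRDV clonotypes in thymus (70.9%, 60.6% to 79.5%) and 122 of 157 in spleen (77.7%, 70.6% to 83.5%). TRAV15 had 60 of 96 (62.5%, 52.5% to 71.5%) and 97 of 168 (57.7%, 50.2% to 65.0%). Other TRAV stood at 74.9% and 69.5%. Nearly all the rest were out of frame, and an in-frame stop was seen in 1 TRDV clonotype of each library, 1 TRAV15 clonotype in thymus and 0 in spleen.

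As a class TRAV15 was less often productive than other TRAV in both libraries. The difference was -12.4 points in thymus (95% interval -22.4 to -3.30) and -11.7 points in spleen (-19.4 to -4.46), with adjusted p = 0.0284 and 0.00633 by Fisher's exact test. Among its copies TRAV15-1-DV6-1 stood lowest in both libraries (41.7% and 41.2%), and the copies were not tested. TRDV did not differ from other TRAV past the threshold. Its difference was -3.96 points in thymus (-14.3 to 4.65) and 8.23 points in spleen (1.04 to 14.1), with adjusted p = 0.499 and 0.0820 by Fisher's exact test. TRDV exceeded TRAV15 by 19.97 points in spleen (9.83 to 29.5, adjusted p = 0.000748, Fisher's exact test), and by 8.43 points in thymus (-5.29 to 21.6), which did not pass (adjusted p = 0.441).

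TRAV17 to TRAV21 also had a productive share below that of other TRAV as a whole, at 64.6% in thymus and 61.2% in spleen, and were not tested for it. By gene, TRDV1 was productive in 50 of 63 and 71 of 94 clonotypes in thymus and spleen, TRDV2-1 in 3 of 5 and 14 of 20, and TRDV4 in 2 of 3 in each. TRDV2-2 stood at 6 of 15 in thymus (40.0%, 19.8% to 64.3%) and 35 of 40 in spleen (87.5%, 73.9% to 94.5%), which was not tested. TRAV15-1-DV6-1 was productive in 10 of 24 and 14 of 34 clonotypes (41.7% and 41.2%), TRAV15-2-DV6-2 in 13 of 16 and 12 of 24, and the D and N copies together in 37 of 56 and 71 of 110. Weighted by reads, 81.4% and 90.8% of TRDV reads were productive, beside 77.2% and 75.4% of TRAV15 reads and 84.9% and 85.7% of other TRAV reads.

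**Figure D4:**
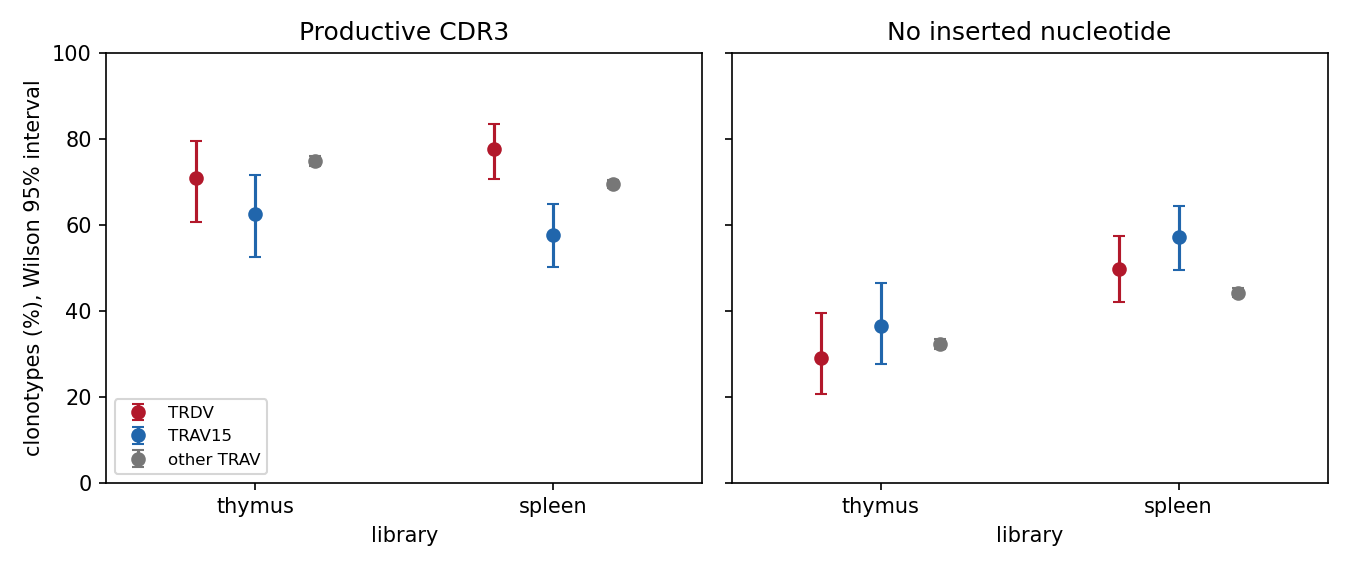
Share of clonotypes (%) with a productive CDR3 (left) and with no inserted nucleotide between V and J (right), by V class and library, with Wilson 95% intervals. TRAV15 is lowest for productive CDR3s in both libraries (62.5% and 57.7%), and all classes have more junctions without insertion in spleen than in thymus.

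Inserted nucleotides were counted between the aligned ends of V and J, with overlapping ends counted as 0. No nucleotide was inserted in 25 of 86 TRDV clonotypes in thymus (29.1%, 20.5% to 39.4%) and 78 of 157 in spleen (49.7%, 42.0% to 57.4%). TRAV15 had none in 35 of 96 (36.5%) and 96 of 168 (57.1%, 49.6% to 64.4%), and other TRAV in 32.2% and 44.2%. The TRAV15 share in spleen was 12.95 points above other TRAV (95% interval 5.33 to 20.3, adjusted p = 0.00414, Fisher's exact test). Among productive clonotypes alone it was 51.5% against 40.6%, which did not pass (adjusted p = 0.137, Fisher's exact test). The TRDV share differed from other TRAV by -3.18 points in thymus (-11.8 to 7.21) and 5.49 points in spleen (-2.29 to 13.3), and neither passed (adjusted p = 0.610 and 0.315, Fisher's exact test).

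The median number inserted was 2 in thymus and 1 in spleen for TRDV, as for other TRAV, and 1 and 0 for TRAV15. Over 10 nucleotides were inserted in 3 and 2 TRDV clonotypes (3.49% and 1.27%) and in 1 and 3 TRAV15 clonotypes (1.04% and 1.79%). Other TRAV stood at 1.12% and 1.23%. The TRDV cases were a TRDV1-TRAJ21 junction with 117 in each library, and TRDV4 clonotypes with 18 and 12 in thymus and 11 in spleen. These TRDV4 clonotypes hold bases of a D segment, as given below. The 3 splenic TRAV15 cases, with 50, 27 and 20, hold bases of another J or C segment, also given below. Other TRAV clonotypes were not searched for such J or C stretches, so these shares do not compare like with like. The V end was untrimmed in 60.5% of TRDV clonotypes in thymus and 51.6% in spleen, beside 45.8% and 43.5% for TRAV15 and 40.1% and 41.3% for other TRAV. The alignment placed over 4 palindromic nucleotides at a V or J end in 3 of 86 and 6 of 157 TRDV and 4 of 96 and 5 of 168 TRAV15 clonotypes. Among other TRAV it did so in 290 of 5907 and 500 of 9258. These nucleotides were not counted as inserted. By gene, TRDV2-2 had no insertion in 9 of 15 and 24 of 40 clonotypes, and TRDV1 in 13 of 63 and 45 of 94.

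**Figure D5:**
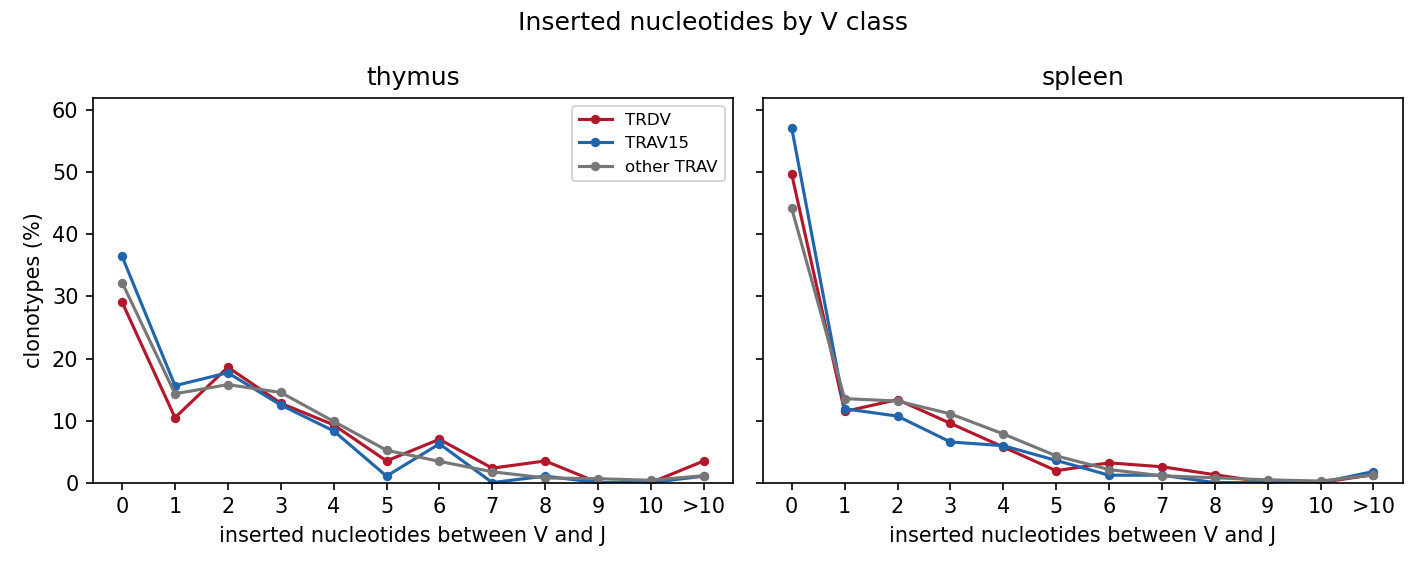
Share of clonotypes (%) by the nucleotides added between V and J, with all numbers over 10 in the last class, for TRDV (red), TRAV15 (blue) and other TRAV (grey) in each library. The class without insertion is the highest for each V class, at 29.1% to 57.1% of clonotypes.

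Productive CDR3s had a median length of 14 residues for TRDV, 15 for TRAV15 and 13 for other TRAV, the same in both libraries. The first residues mostly followed the V gene. TRDV1 began with CGGK in 38 of 50 productive clonotypes in thymus and 50 of 71 in spleen, TRDV2-2 with CALM in 6 of 6 and 33 of 35, and TRDV2-1 with CALR in 3 of 3 and 10 of 14. In spleen 4 of 14 TRDV2-1 clonotypes began with CALM, as most TRDV2-2 clonotypes did. Whether the V call of these 4 is right was not tested. The TRAV15 copies whose names end in 1 mostly began with CALW, and those ending in 2 with CALS.

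In TRDV4, the member gene nearest to the J cluster, bases of a D segment were found between V and TRAJ. TRDD2 is a δ D segment of 16 bases in GENCODE M21 (GRCm38, chr14:54122226-54122241). In 4 of the 6 TRDV4 clonotypes, 2 in each library and all productive, the aligned V part ran over the first 16 bases, 15 of TRDV4 and 1 palindromic, and TRDD2 bases followed it directly. The CDR3s are shown with the TRDD2 bases beyond the V part in capitals.
TRDD2: atcggagggatacgag
TRDV4 TRAJ45 thymus: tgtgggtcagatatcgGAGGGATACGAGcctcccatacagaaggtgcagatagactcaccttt
TRDV4 TRAJ48 thymus: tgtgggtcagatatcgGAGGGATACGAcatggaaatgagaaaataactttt
TRDV4 TRAJ30 spleen: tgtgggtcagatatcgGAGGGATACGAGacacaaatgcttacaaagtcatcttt
TRDV4 TRAJ57 spleen: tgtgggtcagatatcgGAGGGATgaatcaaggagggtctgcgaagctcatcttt
The match beyond V was 12, 11, 12 and 7 bases long, and the clonotypes held 120, 56, 81 and 46 reads. The first 4 bases of TRDD2 are the same as the end of the V part and cannot be told apart from it. With them the matches were 16, 15, 16 and 11 bases.

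The other 2 TRDV4 clonotypes were a single junction of TRDV4 with TRAJ41, out of frame, without TRDD2, and found with 10 reads in thymus and 14 in spleen.
TRDV4 TRAJ41: tgtgggtctcaaacactagctccatgttg
Beyond the V part, a TRDD2 match of at least 10 bases was seen in 3 TRDV4 clonotypes and in 0 other TRAJ clonotypes. At 8 bases, 0 other members and 7 of 5907 and 6 of 9258 other TRAV clonotypes also matched. At the 7 bases of the TRAJ57 clonotype, 1 TRAV15 clonotype in spleen and 1.42% and 1.33% of other TRAV clonotypes matched, so that a stretch of this length is not particular to TRDV4. Over the whole CDR3, V part included, 8 or more bases matched in 3 of 86 and 8 of 157 TRDV, 1 of 96 and 0 of 168 TRAV15, and 23 and 24 other TRAV clonotypes. TRDD1, of 11 bases, was not matched over 10 or more bases in any TRAJ clonotype. The alignment had assigned no D gene to a TRAJ clonotype, so in TRDV4 D bases enter the counts of inserted nucleotides, which were 18, 12, 11 and 5. The search for TRDD2 was made after the TRDV4 CDR3s had been seen.

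The C gene was that of the α chain, as for other TRAV. TRAC was assigned to all 86 TRDV and all 96 TRAV15 clonotypes in thymus, and to 156 of 157 and 163 of 168 in spleen. The other 6 had no C gene. Among other TRAV clonotypes TRAC was assigned to 5873 of 5907 in thymus and 9181 of 9258 in spleen. TRDC, the δ constant gene, was assigned to 0 clonotypes of either library. TRDJ segments, the J genes of the δ chain, were the first J of 3 clonotypes with 108 reads in thymus and 2 clonotypes with 3 reads in spleen, none of them with a TRDV gene. The kit primes from the α and β constant regions, so δ transcripts that end in TRDC need not have been amplified.

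Some members have doubtful J calls. Of the 5 splenic TRAV15 clonotypes without a C gene, 3 held 15 or more bases of another segment. A TRAV15N-2-TRAJ34 clonotype of 103 reads, called productive, held 20 bases of Trbj1-1, a TRAV15-2-DV6-2-TRAJ40 clonotype of 22 reads held 20 bases of Trbj2-3, and a TRAV15N-1-TRAJ23 clonotype of 1 read held 34 bases of TRAC. The first of these is shown with the Trbj1-1 bases in capitals.
TRAV15N-2 TRAJ34 spleen: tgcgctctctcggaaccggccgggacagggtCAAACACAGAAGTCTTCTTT
A TRDV1-TRAJ21 clonotype, out of frame, had 117 unaligned nucleotides between V and J and 2 reads in each library.

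Of the members, 12 TRDV and 6 TRAV15 clonotypes had the same CDR3 nucleotide sequence in both libraries. That was 13.95% of TRDV clonotypes in thymus and 7.64% in spleen, 6.25% and 3.57% of TRAV15 clonotypes, and 11.5% and 7.37% of other TRAV clonotypes. None of the 6 comparisons between classes passed (lowest adjusted p = 0.183, Fisher's exact test). The TRDV share was higher than that of other TRAV by 2.41 points in thymus (95% interval -3.44 to 11.3) and 0.277 points in spleen (-2.99 to 5.54). When V and J had to match too, these differences were 8.62 and 4.24 points and passed (adjusted p = 0.00735 and 0.0317, Fisher's exact test). That rule bears unequally on the classes, because the first-listed V was tied in 1487 of 5907 thymic and 2414 of 9258 splenic other TRAV clonotypes. No TRDV clonotype was tied, and the effect of ties on these differences was not tested. With a minimum of 10 reads the differences were -2.22 and -2.01 points.

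All 12 shared TRDV clonotypes had the same V gene in both libraries. They comprised 10 with TRDV1, 1 with TRDV2-2 and 1 with TRDV4, and 9 were productive. In 7 of the 12, 1 library held at most 2 reads. Those with more in both included TRDV1-TRAJ50 with 873 reads in thymus and 178 in spleen, a second TRDV1-TRAJ50 junction with 132 and 1360, TRDV1-TRAJ58 with 154 and 615, and TRDV1-TRAJ45 with 220 and 39. Of the 12, 7 had no inserted nucleotide, and of these the first TRAJ50 junction and the TRAJ58 junction are shown. For this TRAJ50 junction in thymus the alignment placed 10 palindromic nucleotides at the V end, which were not counted as inserted.
TRDV1 TRAJ50: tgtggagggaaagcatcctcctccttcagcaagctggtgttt
TRDV1 TRAJ58: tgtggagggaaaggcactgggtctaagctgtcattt
Of the 6 shared TRAV15 clonotypes 5 were productive, and 3 had 1 read or 2 reads in 1 library. The others were TRAV15-2-DV6-2-TRAJ48 with 70 and 61 reads, TRAV15N-1-TRAJ33 with 36 and 168, and an out-of-frame TRAJ34 junction with 125 and 152 that was listed as TRAV15-1-DV6-1 in thymus and TRAV15N-1 in spleen.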

How the data were processed

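TCRα and TCRβ cDNA was made with the SMARTer Mouse TCR a/b Profiling Kit and sequenced on a MiSeq. The authors aligned and assembled reads with MiXCR 2.1.12 against its own gene library and deposited, for each clonotype, a raw read count and that count as a fraction of the library; filters and a genome build are not given in the sources used here. Here clonotypes were taken as deposited, with no read minimum, classed by first-listed V and J gene, and shares were recomputed over TRAJ clonotypes. Frame was read from the CDR3 protein, and insertions from the deposited reference points. Classes were compared within a library by Fisher's exact test, two-sided, with Benjamini-Hochberg adjustment over 26 tests; intervals are Wilson, and Newcombe for differences. Genes were named by a rule covering every TRDV and TRAV15 gene, leading J genes and pairs, the 3 clonotypes with most reads and shared clonotypes. The members and lists were chosen with earlier results of these data known. The scripts were tested on simulated data. Python 3.11.15, pandas 2.3.3 and scipy 1.17.1 were used.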

Additional observations from a re-analysis of the deposited data

Results flagged for a closer look

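In 3 comparisons the difference between V classes had opposite signs in the 2 libraries, and whether the libraries differ in it was not tested. The productive share of TRDV was -3.96 percentage points relative to other TRAV in thymus and 8.23 points in spleen. The share of TRDV clonotypes without inserted nucleotides was -3.18 points relative to other TRAV in thymus and 5.49 points in spleen. The share of TRAV15 clonotypes joined to TRAJ45 and upstream was 2.72 points relative to other TRAV in thymus and -1.63 points in spleen. None of these 6 differences passed the adjusted threshold in its own library.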

How the results depend on the processing

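Of 10 alternatives, 2 were chosen after seeing the data, namely counting palindromic nucleotides as inserted and leaving out the 3 members with stretches of another segment. They gave 148 tested differences, of which 141 kept direction and side of the threshold. The differences of TRDV from other TRAV and from TRAV15 at TRAJ45 and upstream kept theirs in all 20 cases, between 39.4 and 58.3 points. The share of TRDV clonotypes found in the other tissue, relative to other TRAV, turned to -0.406 points in spleen with at least 2 reads. With at least 10 reads it turned to -2.22 points in thymus and -2.01 in spleen. It passed at 8.62 points in thymus and 4.24 in spleen when V and J had to match, a rule that ties of the first-listed V can affect in other TRAV but not in TRDV. The TRAV15 excess without insertion in spleen was 10.97 points and no longer passed among productive clonotypes. With palindromic nucleotides counted as inserted, TRDV in thymus was 0.0683 points above other TRAV without insertion. The cause of these shifts was not tested. Counts of clonotypes and reads stayed within 1.5 times throughout, and read-weighted productive differences stayed within the intervals reported. No paired analysis was possible because each tissue had 1 library. No D gene was assigned to a TRAJ clonotype, so disregarding D left every value as it was, and no member was tied with another V class.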

Other observations

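Several productive CDR3 proteins of TRDV clonotypes were encoded by more than 1 nucleotide sequence. In spleen this held for 8 of 112 TRDV proteins, made by 18 clonotypes, and in thymus for 2 of 59. For TRAV15 it held for 3 of 94 proteins in spleen and 0 of 60 in thymus. The most repeated was a TRDV2-2-TRAJ58 protein with 4 nucleotide sequences and 650 reads in spleen. TRDV1-TRAJ56 and TRDV1-TRAJ49 proteins with 2 nucleotide sequences each held 3908 and 1828 reads in spleen. Other TRAV proteins were not counted in this way, so the counts describe the members alone, and no test was made.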
